A study of Mus musculus with 12 samples.

Results

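The kallikrein-related peptidases of stratified epithelium are 10 secreted serine proteases, Klk5 to Klk14, taken here by gene symbol from the platform annotation. The array of 25697 probes held 12 probes for 9 of these 10 genes, and no probe on it was annotated to Klk12, which was not analysed here. All 9 genes entered the test among 8420 genes, and every one of the 12 probes was detected on all 12 arrays. They were measured in mouse oral tumours isolated on day 21 of growth, 6 labelled KHR-NICD and 6 labelled KHR. All 12 tumours arose in first-generation offspring of FVB and C57BL/6 mice, and both groups carry the KHR label, which the labels do not spell out. NICD usually stands for the intracellular domain of a Notch receptor, the fragment that reaches the nucleus and turns on target genes. The labels give neither the driver of NICD nor the sex of the mice, and number the tumours as biological replicates, with no mouse named for any of them. The p-values cover the spread among these samples only.

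Kallikrein-related peptidases are made as inactive precursors by the upper layers of skin and oral mucosa and are cut into active form by one another. Once active they cleave the desmosomal proteins that hold cornified cells together, which lets the outermost cells shed, and they also process cytokines, antimicrobial peptides and protease-activated receptors. Inhibitors of the Spink family, above all Spink5, hold them in check. In human skin KLK5 is regarded as an initiator that activates KLK7 and KLK14, and KLK14 in turn activates KLK5.

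The genes lie side by side on mouse chromosome 7. In the RefSeq annotation of GRCm38.p6 their order is Klk14, Klk13, Klk12, Klk11, Klk10, Klk9, Klk8, Klk7, Klk6 and Klk5, with 1 long non-coding RNA gene, 2310002F09Rik, between Klk13 and Klk12. The promoter windows of the 3 members with the smallest p-values between the tumour types are shown because these members stood lowest in KHR-NICD tumours relative to KHR tumours. Each window runs from 250 bases before to 50 bases after the RefSeq start on the plus strand of GRCm38.p6, at chr7:43690168-43690467 for Klk14, chr7:43712317-43712616 for Klk13 and chr7:43780804-43781103 for Klk10. Capitals mark matches to the motifs named after the sequences.
Klk14: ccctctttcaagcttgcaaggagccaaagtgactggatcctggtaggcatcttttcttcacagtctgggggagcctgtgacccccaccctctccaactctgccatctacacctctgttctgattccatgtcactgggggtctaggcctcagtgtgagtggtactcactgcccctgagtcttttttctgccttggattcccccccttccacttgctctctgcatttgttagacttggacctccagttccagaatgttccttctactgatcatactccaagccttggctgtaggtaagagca
Klk13: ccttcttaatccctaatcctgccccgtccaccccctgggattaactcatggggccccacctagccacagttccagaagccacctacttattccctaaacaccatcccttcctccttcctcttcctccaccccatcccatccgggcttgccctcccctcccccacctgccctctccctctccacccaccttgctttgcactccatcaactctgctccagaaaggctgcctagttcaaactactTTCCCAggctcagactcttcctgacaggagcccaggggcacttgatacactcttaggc
Klk10: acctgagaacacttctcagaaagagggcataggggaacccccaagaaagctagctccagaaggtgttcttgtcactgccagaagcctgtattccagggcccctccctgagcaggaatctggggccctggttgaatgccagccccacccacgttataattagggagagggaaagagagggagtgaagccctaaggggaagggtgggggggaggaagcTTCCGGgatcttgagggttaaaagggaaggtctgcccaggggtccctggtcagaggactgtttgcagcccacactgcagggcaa
The motifs searched, on both strands, were TGGGAA, the core bound by the Notch partner RBPJ, TGANTCA for AP-1, CCGGAA for ETS factors, AACNNGTT for grainyhead-like factors, TATAAA and CATTCC for TEAD. The Klk14 window held 0 of the 6 motifs. The Klk13 window held 1 match to the RBPJ core, at position -8 from the start, and the Klk10 window 1 match to CCGGAA, at position -34. Over the 12 windows of the 10 members, the RBPJ core was found in 5 (of Klk6, Klk9, Klk13 and both of Klk11), and it occurs in 25.6% of 32851 RefSeq windows of this length. CCGGAA was found in 2 of the 12 (Klk6 and Klk10) and CATTCC in 2 (Klk6 and Klk12), against 14.9% and 14.7% of all windows. TGANTCA, AACNNGTT and TATAAA had 0 matches in the 12 windows, against 7.81%, 4.20% and 13.6% of all windows. A match describes letters only, and the absence of one says nothing about a factor.

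Each array detected 43.6% to 48.1% of its probes. The members' probes had signals from 516 to 22181, each a mean over 20 to 57 beads with a standard error of at most 5.20% of the signal. The brightest probe of any array reached 27130. Markers of stratified epithelium were present, with the basal keratins Krt5 and Krt14, the suprabasal keratins Krt1 and Krt10 and the mucosal keratins Krt4 and Krt13 detected on 12 of 12 arrays. This mix, with Krt1 and Krt10 beside Krt4 and Krt13, was not used to set oral mucosa apart from skin. The hair follicle keratins Krt27 and Krt71, known from the inner root sheath of hair, were also detected on 12 of 12, at log2 intensities up to 11.78 and 12.15. By contrast, the glandular kallikreins Klk1 and its Klk1b relatives, Klk4 and Klk15, which mark salivary gland and other secretory tissue, were near background. Of 14 such genes on the array 12 were detected on 0 arrays, and none of their 19 probes on more than 1. Of 14 salivary gland markers, 11 were detected on 0 arrays. Eif2s3y, a transcript of the Y chromosome, was detected in 2 KHR-NICD tumours, replicates 1 and 4, and 3 KHR tumours, replicates 4, 5 and 6. Its log2 intensity was at least 8.18 in those 5 and at most 4.92 in the other 7. Xist, an RNA of the X chromosome, ran the other way, between 4.58 and 5.11 in those 5 and between 6.62 and 7.22 in the other 7. That split also followed muscle and hair keratin levels, as described with Klk5, Klk6 and Klk7.

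The design sets KHR-NICD against KHR tumours, and the question here is which members differ in the tumours labelled with NICD. All levels below are log2 intensities after background correction and quantile normalization, and levels of different genes are not set against each other because probes differ. Klk14, a trypsin-like protease, fell in KHR-NICD tumours and was the 1 member of 9 that passed an adjusted p of 0.05 by limma. Klk13 and Klk10 had smaller negative differences that did not pass, and Klk5 had the largest positive one, which also did not pass. Over all genes 0.202% were called, 0.107% lower and 0.095% higher in KHR-NICD tumours, so 1 call among 9 members is a count too small to compare with that share.

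Klk14 had a lowest, median and highest level of 9.98, 10.34 and 11.33 in KHR-NICD tumours, against 11.18, 11.56 and 11.81 in KHR tumours. Of the KHR-NICD tumours 5 of 6 lay below every KHR tumour, and the remaining one, replicate 6 at 11.33, overlapped them. The means were 10.42 ± 0.47 in KHR-NICD and 11.55 ± 0.24 in KHR tumours (SD, n = 6 each). The difference was -1.13 (SE 0.20), with a 95% interval from -1.56 to -0.71. This is 2.19-fold lower in KHR-NICD tumours, with an adjusted p = 0.0392 by limma over all genes. Without KHR-NICD tumour 6 the difference was -1.32 and the limma adjusted p = 0.00201. The call held only without that tumour or without KHR tumour 1. It was lost without any single one of the other 10 tumours (KHR-NICD 1 to 5 and KHR 2 to 6), with adjusted p values from 0.0586 to 0.111, while the difference stayed between -1.21 and -1.04. In bulk tumours fewer cells that express a gene and less RNA per cell cannot be told apart.

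**Figure D1:**
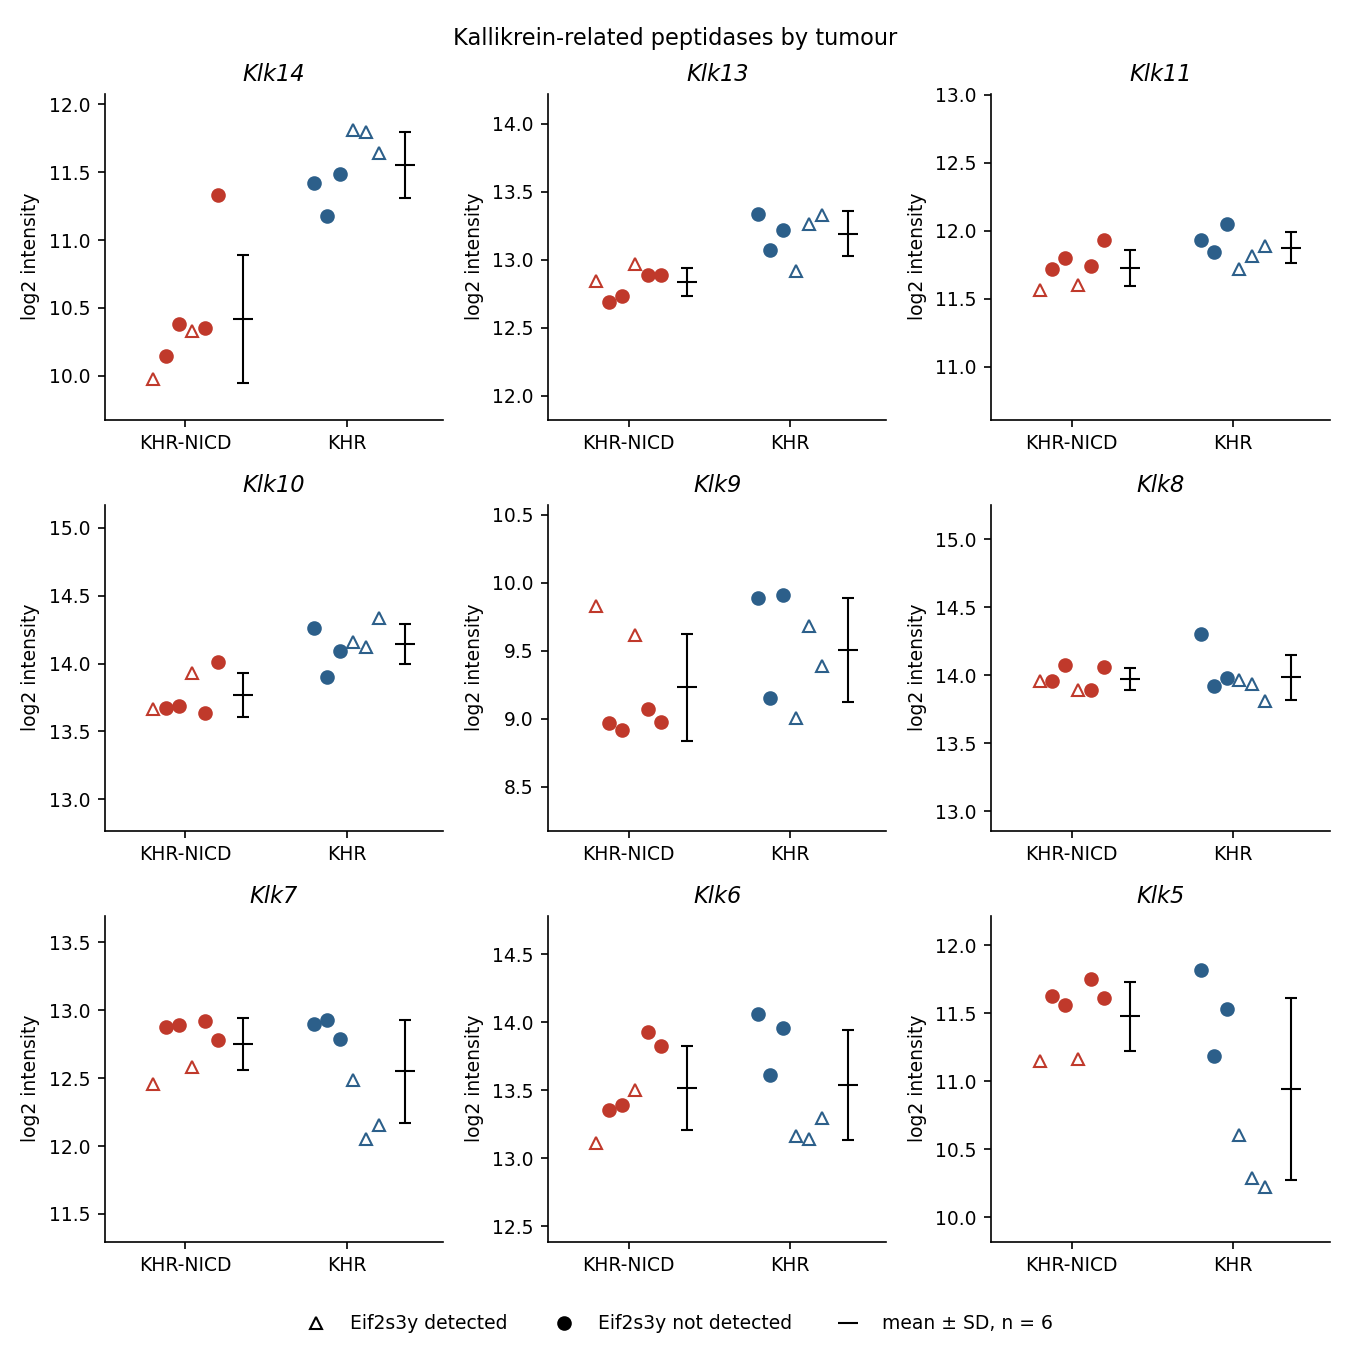
Log2 intensity of each measured member in every tumour, with KHR-NICD on the left and KHR on the right of each panel, mean and SD beside the points and a vertical axis of equal span in all panels. Open triangles are tumours with Eif2s3y detected. For Klk14, 5 of 6 KHR-NICD tumours lie below all KHR tumours, and for Klk5 and Klk7 the triangles lie below all circles.

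Klk13 and Klk10 stood at the same end. Klk13, also a trypsin-like protease of the upper epithelium, had a lowest, median and highest level of 12.69, 12.87 and 12.97 in KHR-NICD tumours, against 12.92, 13.24 and 13.34 in KHR tumours. On the brightest of its 3 probes, used for these levels, only KHR tumour 4 reached down into the KHR-NICD range. The difference was -0.35 (SE 0.09), and the limma adjusted p = 0.118. Its other 2 probes gave -0.23 and -0.25, so all 3 probes had the same direction. On the dimmest of the 3, KHR tumours 1 and 2, at 11.46 and 11.27, also lay under the highest KHR-NICD tumour, at 11.51. With the mean of the 3 probes the Klk13 difference was -0.28 (limma adjusted p = 0.196). Klk10, a member with weak or no known enzymatic activity that is often silenced in human carcinomas, had 13.64, 13.68 and 14.01 in KHR-NICD tumours, against 13.90, 14.14 and 14.33 in KHR tumours. Here 4 of 6 KHR-NICD tumours lay below every KHR tumour. The difference was -0.38 (SE 0.10), and the limma adjusted p = 0.122. At an unadjusted p under 0.05, limma gave 3 of 9 members (Klk14, Klk13 and Klk10), all lower and 0 higher, against 7.10% of all genes lower and 6.83% higher. The groups separated fully for 0 of the 9 members, against 1.57% of all genes (0.855% lower and 0.713% higher).

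The other members were closer in the 2 tumour types. Klk11, a trypsin-like member, had 11.57, 11.73 and 11.93 in KHR-NICD tumours, against 11.72, 11.86 and 12.05 in KHR tumours, and its probes gave differences of -0.15 and -0.25. Klk9, known in human as a chymotrypsin-like member, had 8.92, 9.02 and 9.83 in KHR-NICD tumours, against 9.002, 9.53 and 9.91 in KHR tumours, a difference of -0.27 (SE 0.20). The 2 KHR-NICD tumours with Eif2s3y had Klk9 levels of 9.62 and 9.83, and the other 4 lay between 8.92 and 9.07. Klk8 (neuropsin), a trypsin-like protease of skin and brain, had 13.89, 13.96 and 14.07 in KHR-NICD tumours, against 13.81, 13.95 and 14.30 in KHR tumours. The 95% interval of its difference ran from -0.20 to 0.17. Klk6 (neurosin), a trypsin-like protease of skin and nervous tissue, had 13.11, 13.45 and 13.93 in KHR-NICD tumours, against 13.14, 13.45 and 14.06 in KHR tumours, with an interval from -0.43 to 0.39. Klk7, the chymotrypsin-like enzyme of the cornified layer, had 12.45, 12.83 and 12.92 in KHR-NICD tumours, against 12.05, 12.64 and 12.93 in KHR tumours, a difference of 0.20 with an interval from -0.15 to 0.55. Klk5 had 11.15, 11.59 and 11.75 in KHR-NICD tumours, against 10.22, 10.90 and 11.82 in KHR tumours. Its difference was 0.54 (SE 0.26), and the limma adjusted p = 0.380. Its SD of 0.67 in KHR tumours was the largest of the 9 members in that group. The Klk5 difference was 0.87 with array weights, 1.14 in replicates 4 to 6 and -0.065 in replicates 1 to 3, none past the threshold (limma adjusted p = 0.0736, 0.0870 and 0.918). The Klk7 difference was 0.53 in replicates 4 to 6 and -0.13 in replicates 1 to 3, and 0.0995 and 0.12 without KHR tumour 5 or 6.

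Along the chromosome the most negative difference lay at the Klk14 end and the most positive at the Klk5 end. In that order the differences were -1.13 for Klk14, -0.35 for Klk13, -0.15 for Klk11, -0.38 for Klk10, -0.27 for Klk9, -0.014 for Klk8, 0.20 for Klk7, -0.020 for Klk6 and 0.54 for Klk5. The sign was negative for 7 of 9 members, whose median was -0.15, where 48.9% of all genes were negative with a median of 0.0052.

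**Figure D2:**
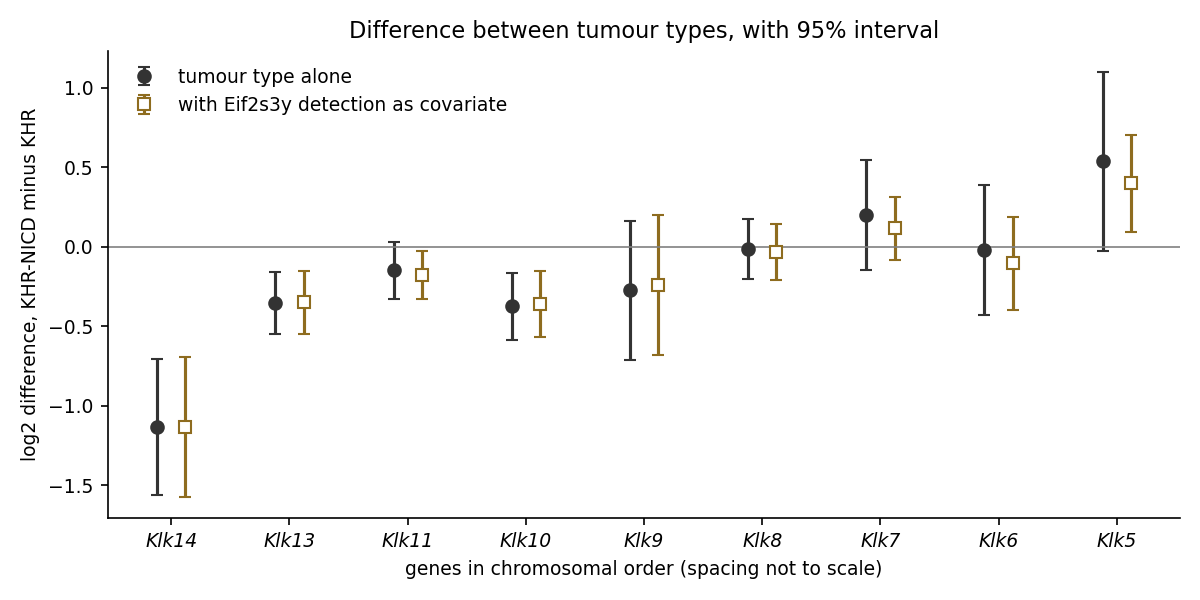
Log2 difference of KHR-NICD minus KHR tumours for each measured member with its 95% interval, in chromosomal order. Filled circles come from the fit of tumour type alone and open squares from the fit with Eif2s3y detection as a covariate. Klk14 lies at -1.13 in both fits, and the interval of Klk5 clears 0 in the fit with the covariate only.

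Whether members changed unequally was tested on the log2 ratio of each pair within a tumour, a test chosen after seeing the data. Of 36 pairs 12 passed after Benjamini-Hochberg adjustment of exact two-sided permutation p-values over 6 against 6 tumours. Among them were 7 of the 8 pairs with Klk14 and 5 of the 28 pairs without it. Those 5 were Klk5 with Klk6, Klk5 with Klk13, Klk7 with Klk13, Klk8 with Klk10 and Klk8 with Klk13. The share of passing pairs among all genes was not computed, so these counts cannot be set against it. The ratio of Klk14 to its neighbour Klk13 was lower by 0.78 in KHR-NICD tumours, at -2.42 ± 0.45 in KHR-NICD and -1.64 ± 0.30 in KHR tumours (SD, n = 6 each; exact permutation p = 0.0108, adjusted 0.0390). The ratio of Klk14 to Klk10 was lower by 0.76 and that to Klk5 by 1.67, with exact permutation p = 0.00866 and 0.00433 and the same adjusted value. For each of the 8 ratios, 5 of 6 KHR-NICD tumours lay below every KHR tumour. All 8 ratios share the same Klk14 values, in which 5 of 6 already lay below, so they are not 8 separate results. The pair that did not pass was Klk14 with Klk9, with a difference of -0.86 (adjusted exact permutation p = 0.0779). Klk13 and Klk10 themselves gave no detectable change in their ratio, which differed by -0.022 for Klk10 over Klk13 (exact permutation p = 0.794). The count of passing pairs fell to 0 without KHR-NICD tumour 1, 2, 3 or 5 or without KHR tumour 5 or 6. Without KHR-NICD tumour 4 or 6 it was 11 or 10, and without KHR tumours 1, 2, 3 and 4 it was 16, 15, 8 and 8.

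**Figure D3:**
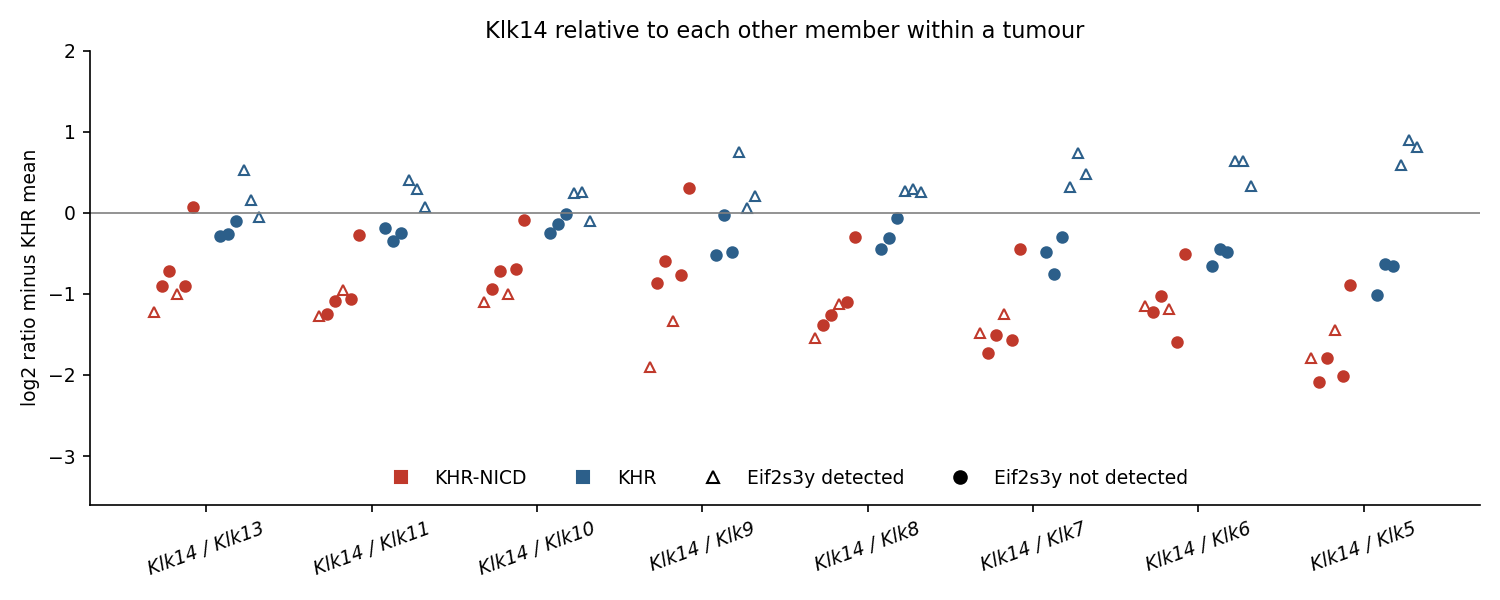
Log2 ratio of Klk14 to each other member within each tumour, shifted so that the mean of the KHR tumours is 0, with KHR-NICD tumours left of KHR tumours for each ratio. Open triangles are tumours with Eif2s3y detected. In each ratio 5 of 6 KHR-NICD tumours lie below all KHR tumours, and replicate 6 is the exception.

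Klk5, Klk6 and Klk7 varied along another line, the detection of Eif2s3y. Klk5 lay between 10.22 and 11.16 in the 5 tumours with Eif2s3y and between 11.19 and 11.82 in the 7 without it, with no overlap. Klk7 lay between 12.05 and 12.58 in the 5 and between 12.78 and 12.93 in the 7, again with no overlap. The share of all genes that separate fully by this split was not computed, so these separations cannot be set against it. Klk6 lay between 13.11 and 13.51 in the 5 and between 13.35 and 14.06 in the 7, where the ranges met. In a fit that also held the tumour type, detected minus not detected was -0.83 for Klk5, -0.50 for Klk7 and -0.51 for Klk6, with adjusted p = 0.00269, 0.00387 and 0.0227 by limma over all genes. These 3 of 9 members were lower where Eif2s3y was detected, and 0 of 9 were higher, against 10.1% and 8.47% of all genes. Klk14, Klk13, Klk10 and Klk9 did not pass and had values of 0.018, 0.029, 0.083 and 0.19. Klk11 and Klk8 did not pass either, at -0.17 and -0.12, in the same direction as Klk5, Klk6 and Klk7. These sets of tumours come from the data and not from the labels, and in KHR they coincide with replicates 1 to 3 and 4 to 6. The Klk6 call by limma was lost, with the difference at -0.48 each time, without KHR tumour 4 (adjusted p = 0.0518), KHR tumour 5 (adjusted p = 0.0518) or KHR-NICD tumour 1 (adjusted p = 0.0582). With the replicate number as a block, Klk7 and Klk6 did not pass (limma adjusted p = 0.0587 and 0.0803). Within replicates 1 to 3, and within 4 to 6, the Eif2s3y difference rests on 1 KHR-NICD tumour against the other 2. It was -0.44 and -0.52 for Klk5, -0.43 and -0.27 for Klk7 and -0.26 and -0.37 for Klk6, negative in both sets and past the threshold in neither.

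Markers of other tissue moved with the same split. All 6 measured hair follicle keratins were lower where Eif2s3y was detected, their mean per tumour running from 6.95 to 8.36 in the 5 tumours and from 7.93 to 10.63 in the 7. Of 12 skeletal muscle genes 10 were lower, with means from 6.67 to 7.88 and from 7.43 to 9.74, while 3 of 6 neutrophil and 3 of 6 endothelial markers were higher. Among fibroblast genes 1 of 9 was higher and 2 lower, and among macrophage genes 1 of 6 was higher. With the hair keratin mean as a further covariate, chosen after seeing the data, the differences were -0.56 for Klk5, -0.46 for Klk7 and -0.50 for Klk6 and none of the 3 passed (limma adjusted p = 0.377, 0.301 and 0.432). With the muscle mean instead they were -0.68, -0.49 and -0.42 and again none passed (limma adjusted p = 0.166, 0.143 and 0.367). Among keratinocyte genes, 2 of 14 differentiation genes were higher and 3 lower where Eif2s3y was detected, and 3 of 10 basal genes were higher and 1 lower, with a basal median of 0.17. The basal keratin Krt5 lay between 13.92 and 14.18 in the 5 tumours and between 13.31 and 13.88 in the 7, without overlap and in the direction opposite to Klk5 and Klk7. The mucosal keratin Krt4 lay between 8.76 and 10.95 in the 5 and between 10.76 and 12.45 in the 7. With the mean of the differentiation genes as a further covariate, the Klk6 difference by Eif2s3y was -0.51 and did not pass (limma adjusted p = 0.0703).

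**Figure D4:**
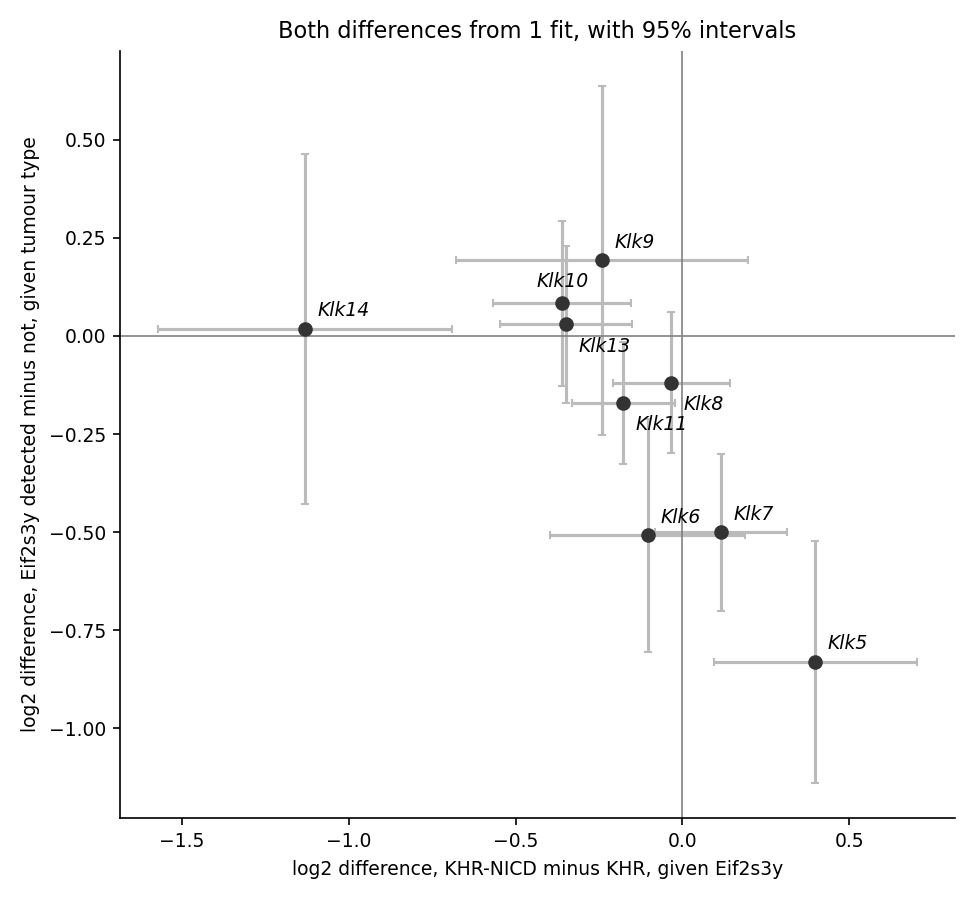
For each measured member, the log2 difference of KHR-NICD minus KHR (horizontal) and of tumours with Eif2s3y detected minus those without (vertical), both from 1 fit with 95% intervals. Klk14 lies far to the left at a vertical value of 0.018, and Klk5, Klk6 and Klk7 lie low at -0.83, -0.51 and -0.50.

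With Eif2s3y detection in the fit, the tumour type difference of Klk14 was -1.13 (limma adjusted p = 0.0248), again the 1 member called, against 2.57% of all genes (1.48% lower and 1.08% higher). Klk13 and Klk10 stood at -0.35 and -0.36 (limma adjusted p = 0.0619 and 0.0645), Klk11 at -0.18 (limma adjusted p = 0.175), and Klk5 at 0.40 with an interval from 0.09 to 0.70 (limma adjusted p = 0.133). With the hair keratin mean as the covariate in its place, Klk5 passed, at 0.76 (limma adjusted p = 0.0333). Among the 5 tumours with Eif2s3y, 2 KHR-NICD tumours had Klk14 levels of 9.98 and 10.33, against 11.64 to 11.81 in 3 KHR tumours, a difference of -1.59 (limma adjusted p = 0.0550). Among the 7 without it, 4 KHR-NICD tumours ran from 10.15 to 11.33, against 11.18 to 11.49 in 3 KHR tumours, a difference of -0.81 (limma adjusted p = 0.209). The test of the difference between these 2 sets did not pass for Klk14 (-0.78, limma adjusted p = 0.282), nor for any other member. For Klk9 the difference was 0.37 with Eif2s3y and -0.67 without it, and the test between the sets gave 1.03 (SE 0.30, limma adjusted p = 0.116). Klk14, Klk13, Klk10 and Klk11 were negative in both sets.

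Genes that act with these proteases were read from lists of inhibitors, partner proteases, and substrates or receptors. Of 6 measured inhibitors 0 were called higher and 0 lower, against 0.095% and 0.107% of all genes, and the median difference was 0.038. Lists this short cannot be set against such small shares. Wfdc12, a secreted inhibitor of serine proteases, had 13.90, 14.26 and 14.43 in KHR-NICD tumours as lowest, median and highest, against 13.26, 13.67 and 13.89 in KHR tumours. All 6 KHR-NICD tumours lay above every KHR tumour, as held for 0.713% of all genes. The difference was 0.60 (SE 0.12), and the limma adjusted p = 0.0656. The other inhibitors with the smallest p were Spink2 at 0.40, Serpinb6a at 0.10 and Slpi, the secretory leukocyte protease inhibitor, at -0.061. Spink12, Spink8, Spink10, A2ml1, Serpina5 and Cst6 were detected on 0 arrays, and no probe was annotated to Spink5.

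Of 11 measured partner proteases 0 were called higher and 0 lower, in a fit that called 0.202% of all genes. Their median was -0.06, and 8 of 11 were negative, against 48.9% of all genes. Furin, a proprotein convertase, had 11.78, 12.04 and 12.16 in KHR-NICD tumours, against 12.28, 12.37 and 12.49 in KHR tumours. It was lower without overlap, as held for 0.855% of all genes. Its difference was -0.39 (SE 0.08), and the limma adjusted p = 0.0737. The membrane proteases St14 (matriptase) and Prss8 (prostasin), which work as a pair in epidermis, stood at -0.31 and -0.24, and the urokinase gene Plau at -0.38. Of 10 measured substrates and receptors 0 were called higher and 0 lower, with a median of -0.05. Il18, a cytokine of the interleukin-1 family, stood at 0.43 (limma adjusted p = 0.129). The desmosomal cadherins Dsg1b and Dsc1 stood at -0.36 and 0.28, and Lamb3, a chain of the basement membrane protein laminin-332, at -0.31. With Eif2s3y in the fit, Wfdc12 and Il18 rose, by 0.61 and 0.39, and Furin fell by 0.41 (limma adjusted p = 0.0283, 0.0439 and 0.0279). That fit called 2.57% of all genes.

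**Figure D5:**
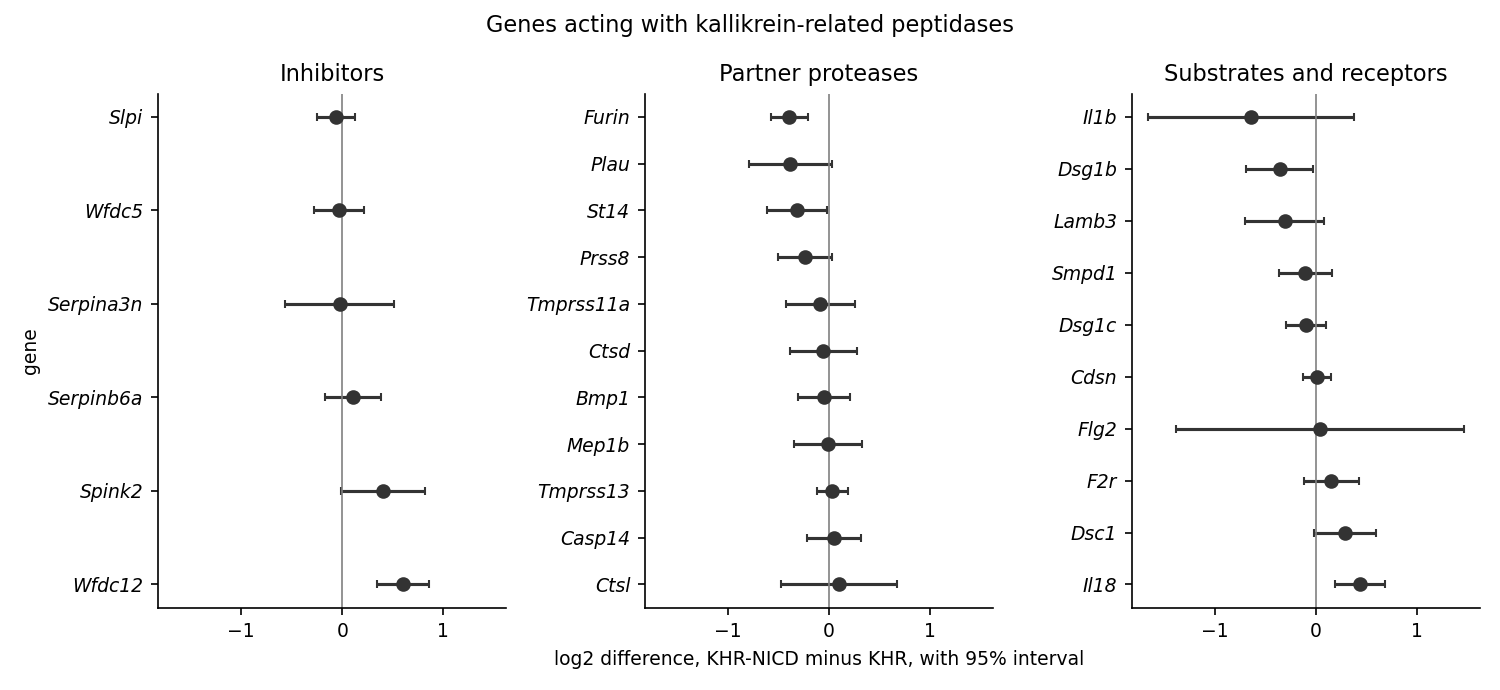
Log2 difference of KHR-NICD minus KHR tumours with its 95% interval for the measured inhibitors, partner proteases, and substrates and receptors. None passed the adjusted threshold. Wfdc12 lies furthest right among the inhibitors at 0.60, and Furin at -0.39 has a narrow interval below 0.

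Keratinocyte lists gave no call in the fit of tumour type alone, which called 0.202% of all genes. Their medians were -0.07 over 10 basal genes, -0.03 over 14 differentiation genes and -0.13 over 8 oral mucosa genes. Cdh3, the P-cadherin of basal keratinocytes, was lower in all 6 KHR-NICD tumours than in any KHR tumour, with a difference of -0.48 (limma adjusted p = 0.0656). With Eif2s3y in the fit Cdh3 fell by 0.44 (limma adjusted p = 0.0205). With the mean of the differentiation genes as a covariate, Klk14 stood at -1.15 (limma adjusted p = 0.0464). The lists for fibroblasts, macrophages, neutrophils, endothelium, skeletal muscle and hair follicle keratins also held 0 calls between the tumour types, with medians of 0.14, 0.16, -0.18, -0.20, -0.13 and -0.64. The salivary list had 1 measured gene, the water channel Aqp5, which was higher in all 6 KHR-NICD tumours than in any KHR tumour, by 0.85 (limma adjusted p = 0.0737). With Eif2s3y in the fit Aqp5 rose by 0.84 (limma adjusted p = 0.0378). Beside Cdh3 and Aqp5, 1.57% of all genes separated fully by tumour type and 2.57% were called in the Eif2s3y fit. The genes whose levels followed Klk14 most closely within the groups were Sh3kbp1, an adaptor protein, Rad1, a DNA damage checkpoint protein, Cwh43, which acts in lipid anchoring, Naa16, a subunit of an N-terminal acetyltransferase, and Xxylt1, a xylosyltransferase. Their Pearson correlations with Klk14 over 12 tumours, after subtracting each group's mean, ran from 0.84 to 0.88. The Spearman correlations ran from 0.73 to 0.89. KHR-NICD tumour 6, flagged below for its Klk14 level, enters all of these correlations. These genes were picked for the highest Pearson correlation of all genes, and the arrays share their normalization. Their own differences between the tumour types ran from -0.17 to 0.10.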

How the data were processed

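Total RNA from each of the 12 tumours was hybridised to its own Illumina MouseRef-8 v2 array. Per the submitters' processing notes GenomeStudio and Partek were used, with no version or role given. The authors deposited a mean bead intensity per probe, not normalized between arrays, and per the file headers a detection p-value set against background. Bead numbers and their standard error, deposited as 2 other measures, only describe precision. The authors' processed intensity values, with array medians from 16.4 to 16.7, served as an alternative. The scale of that table was read from its values as linear. For the members its values matched the normalized values used here, on a linear scale, apart from the offset of 16. That alternative therefore nearly repeats the main run and is not a separate check.

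Intensities were corrected and quantile normalized to log2 with neqc (offset 16) of limma 3.58.1 in R 4.3.3. Probes with detection p under 0.05 on at least 6 arrays were kept (11721), and the brightest kept probe stood for each of 8420 genes. The platform annotation named 1 gene for 23978 probes. Groups were compared as KHR-NICD minus KHR with lmFit and eBayes, with Benjamini-Hochberg adjustment over all genes at 0.05. The fit was tested on simulated data. All members were named, and of each related list the 4 genes with the smallest p, plus the 5 genes most like Klk14. The members, lists and tests were chosen with earlier results of these data known. Promoter windows are RefSeq's, on GRCm38.p6. The files name no bead chip, and probe sequences, and so cross-hybridization between these related genes, were not examined.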

Additional observations from a re-analysis of the deposited data

Results flagged for a closer look

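Among the 18 sets of 6 tumours (9 members in 2 tumour types), 2 had a tumour far from the other 5, and chance flags about 1 set in 20. KHR-NICD tumour 6 had a Klk14 level of 11.33, where the next highest KHR-NICD tumour had 10.38. The same tumour was also the highest of the KHR-NICD tumours for Klk10, at 14.01, and for Klk11, at 11.93. KHR tumour 1 had a Klk8 level of 14.30, where the next highest KHR tumour had 13.98.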

How the results depend on the processing

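As reported, limma called 17 genes (8 higher and 9 lower) and 1 member, Klk14. The count of genes was 29 with no background correction, 54 with median centring (5 higher and 49 lower, with the median of all genes moved to -0.08), 8 with probes tested separately and 31 with eBayes trend and robust settings. It was 125 with array weights, 216 with Eif2s3y detection as a covariate, 141 with the hair keratin mean and 110 with the muscle mean. Within the 5 tumours with Eif2s3y limma called 0 genes (2144 at an unadjusted p under 0.05) and within the 7 without it 1. Replicates 1 to 3 alone gave 5 and replicates 4 to 6 alone 0 (1280 at an unadjusted p under 0.05). Leaving out single tumours gave 1 to 24 genes and 0 to 1 members. The count of passing ratio pairs was 12, and 0 to 16 without single tumours. It was 0 within either Eif2s3y set and within replicates 1 to 3 or 4 to 6. In the 5 tumours with Eif2s3y and in both replicate sets, too few splits exist for an exact permutation p under 0.05. The count of 0 there was fixed in advance and says nothing about the ratios. Klk14 was negative, between -1.59 and -0.81, under all 32 alternatives run, among which the authors' processed values nearly repeat the main ones. Its call was lost, and with it the count of members fell to 0, with no detection filter (-1.13, adjusted p = 0.0712), probes separately (-1.13, adjusted p = 0.0510), within the sets with and without Eif2s3y (-1.59 and -0.81), and in replicates 1 to 3 (-1.19, adjusted p = 0.0763) and 4 to 6 (-1.08, adjusted p = 0.165). More features were tested in the first pair and fewer samples in the others, and why the calls were lost was not tested. At an unadjusted p under 0.05, limma gave 3 to 5 members under those settings. Without single tumours Klk14 ran from -1.32 to -1.04. Members called were 2 with the hair keratin mean, Klk14 and Klk5.

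Same-numbered tumours had correlations from -0.22 to 0.45 and 0 of 6 KHR-NICD tumours correlated best with its own number. These correlations also hold the Eif2s3y split, by which 18.6% of all genes were called given tumour type. The check therefore cannot decide whether same-numbered tumours share more than a number. With the replicate block 1 gene and 0 members were called, and Klk14 stood at -1.13 (limma adjusted p = 0.0667, with 3 members at an unadjusted p under 0.05).

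Members near 0 changed sign, and the cause was not tested. Klk6 was 0.20 with array weights, 0.027 with the differentiation covariate, 0.11 within tumours with Eif2s3y, 0.55 in replicates 4 to 6, 0.11 and 0.0086 with the hair keratin and muscle covariates, and -0.10 to 0.085 without single tumours. Klk8 was 0.052, 0.0047, 0.021 and 0.044 under the first 4 of these, 0.022 with the hair keratin covariate, and -0.048 to 0.049 without single tumours. Klk9 was 0.37 within tumours with Eif2s3y, Klk7 was -0.0033 within those without it and -0.13 in replicates 1 to 3, and Klk5 was -0.065 in replicates 1 to 3. Klk10, Klk11 and Klk13 kept a negative sign and no call in all 32. The bead chip as a block was not run, since the files name none.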
